A study of Mus musculus with 12 samples.

Results

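Mouse embryonic stem cells that had lost a regulatory region of the gene Tcf15 were compared between 12 h and 24 h after they were moved out of naive culture. The comparison used 4 of the 12 libraries of the series, 2 at each time, picked by their genotype and hour alone, and covered all genes of the deposited expression table. The parent line was E14Tg2a, of strain 129/Ola. The deleted line, delta 0.7 in the labels, was homozygous for the loss of 674 bp on chromosome 2 (positions 152177049 to 152177722 in mm10), beyond the far end of Tcf15 (152143561 to 152149097, plus strand). Its columns carry the name of 1 clone, so the deletion and the clone cannot be told apart. Unedited E14Tg2a libraries of the same hours, 2 at 12 h and 2 at 24 h, are given as the wild-type (WT) reference. All cells started in serum-free medium with 2i and LIF (0 h). For the 12 h and 24 h groups of both genotypes the plates were coated with fibronectin and the N2B27 medium held Activin, bFGF and KOSR in place of 2i and LIF. Nothing in the labels says that the 2 libraries of a group were separate cultures, so p-values here measure the spread between libraries, which may be technical.

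In 2i, inhibitors of MEK and of GSK3 hold stem cells in a naive state that resembles the epiblast before implantation, and LIF supports that state through STAT3. When the inhibitors are withdrawn and FGF and Activin are given, cells shut down the naive transcription factors and switch on a formative programme like that of the epiblast just after implantation, with the growth factor Fgf5, the POU factor Pou3f1 and the de novo DNA methyltransferases, while the core factor Pou5f1 (Oct4) is kept. Tcf15 encodes a basic helix-loop-helix protein that pairs with E proteins, is held back by Id proteins, and is known in stem cells as a gene of early priming and in the embryo as a gene of paraxial mesoderm.

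The values were FPKM, that is fragments counted per kilobase of a gene's exons and adjusted for depth. The 4 deleted-line libraries held 12046516 and 13236172 reads at 12 h and 14655381 and 12204993 at 24 h. The WT libraries of these hours held 9740889 to 16701000. The SD over genes of the log2 difference between the 2 libraries of a group was 0.309 in delta 12 h, 0.343 in delta 24 h and 0.414 and 0.398 in the WT groups. Mitochondrial genes took 0.595% of reads in replicate 1 and 1.80% in replicate 2 at 12 h, and 0.494% and 2.13% at 24 h, so this share followed the replicate number and not the hour. Of the genes on the lists used here, 624 were tested and 171 lay under the filter on low values.

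The label was checked against marker genes. Tcf15 itself read 1.06 and 1.04 FPKM at 12 h and 4.44 and 2.76 at 24 h in the deleted line. The WT libraries read 57.1 and 28.8, then 99.4 and 55.4. Every deleted-line library thus lay below every WT library of both hours. The rise of Tcf15 within the deleted line was 1.14 ± 0.38 log2 units (SE, n = 2 libraries per hour) and did not pass the test (limma adjusted p = 0.14, range over the alternatives 0.0077 to 0.46). The WT change was 0.85 log2 units (limma adjusted p = 0.29), and the genotypes' changes differed by 0.29 ± 0.53. Each ± here and below is limma's moderated SE. Its variance is pooled over the 8 libraries of both genotypes, so it is not the spread of the deleted line alone. The 20 listed naive factors summed to 1626 and 1584 FPKM at 12 h and to 734 and 743 at 24 h, while the 23 listed formative genes summed to 778 and 690, then 1245 and 1248. Both sums moved in the direction of the labelled hours.

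Between 12 h and 24 h naive transcription factors fell and formative epiblast genes rose in the deleted line. Nanog fell to 0.166 times its 12 h level, and Klf4, Tbx3, Nr5a2 and Tfcp2l1 fell with it. Gadd45g, Fgf5, Pou3f1 and the FGF family gene Fgf15 rose 14.6-fold to 49.6-fold. Genes of BMP signalling, basement membrane and the S100 and annexin families included falls and no rise, whereas those of the mitotic, ribosomal protein and nuclear respiratory chain lists did not pass in limma in either direction.

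Of 13284 genes tested, 740 (5.57%) passed at an adjusted p under 0.05 in limma. Among them 281 rose (2.12%) and 459 fell (3.46%). These shares of all genes are the measure for the counts of called list members below. The median change was 1.04 log2 units over the rises and -0.92 over the falls, beside -0.01 over all genes tested. A change of at least 1 log2 unit was seen in 152 of the rises and 191 of the falls, and of at least 2 in 21 and 19. The 24 h libraries lay wholly above or below the 12 h libraries in 7220 genes (54.4%), and at an unadjusted p under 0.05 the test passed 2844 (21.4%). Protein-coding genes made up 251 of the rises and 416 of the falls. The count depended on each library: it was 186 without delta 12 h replicate 1, 51 without delta 12 h replicate 2, 171 without delta 24 h replicate 1 and 251 without delta 24 h replicate 2. With the more variable 0 h libraries also in the fit it was 190 (106 higher and 84 lower), and with no filter on low values 448.

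The largest rises were in genes that were low at 12 h. Coordinates are GRCm38 as in GENCODE M21. Gadd45g (ENSMUSG00000021453, chromosome 13, 51846678 to 51848468), which encodes a stress-sensor protein linked to growth arrest and to the start of differentiation, read 5.54 and 2.54 FPKM at 12 h and 83.4 and 82.6 at 24 h. It rose by 4.13 ± 0.31 log2 units of FPKM + 1 (SE; limma adjusted p = 0.0025). Both 24 h libraries lay far above both 12 h libraries, and the call held in all 21 alternatives. Fgf5 (ENSMUSG00000029337, chromosome 5, 98254184 to 98277030), the ligand gene most used as a mark of the postimplantation epiblast, read 0.642 and 0.232 FPKM at 12 h and 24.6 and 18.7 at 24 h. Its rise was 3.98 ± 0.23 log2 units (adjusted p = 0.0014, limma), a 49.6-fold ratio of mean FPKM, and it too was called in all 21 alternatives. Pou3f1 (ENSMUSG00000090125, chromosome 4, 124656807 to 124660655), the POU factor Oct6 of the early epiblast and of neural precursors, read 7.94 and 3.96, then 85.1 and 89.1. Its rise of 3.73 ± 0.40 log2 units (limma adjusted p = 0.0047) was called in 20 of 21 alternatives. Enpp2, which encodes autotaxin, the secreted enzyme that makes lysophosphatidic acid, went from 0.531 and 0.313 FPKM to 20.9 and 14.3.

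The promoters of 4 leading genes are shown because Nanog and Klf4 were among the largest falls, and Gadd45g and Fgf5 the largest rises, of the comparison. Each line gives the 250 bases before the RefSeq start (GRCm38.p6), read 5′ to 3′ on the gene's strand. Capitals mark TTTGCAT, part of the octamer read by POU factors, and CACGTG, the E-box read by Myc and related helix-loop-helix proteins, each searched on both strands (ATGCAAA for the first; the second is its own reverse complement). The windows were chr6:122707315-122707564 (plus strand) for Nanog, chr4:55532476-55532725 (minus) for Klf4, chr13:51846425-51846674 (plus) for Gadd45g and chr5:98253934-98254183 (plus) for Fgf5. RefSeq gave 2 windows for Nanog, of which 1 is shown, and 1 each for Klf4, Gadd45g and Fgf5. The Nanog window shown runs past the first base of the GENCODE span given below, so part of it lies inside that span. Positions in Nanog hold for the window shown only.
Nanog: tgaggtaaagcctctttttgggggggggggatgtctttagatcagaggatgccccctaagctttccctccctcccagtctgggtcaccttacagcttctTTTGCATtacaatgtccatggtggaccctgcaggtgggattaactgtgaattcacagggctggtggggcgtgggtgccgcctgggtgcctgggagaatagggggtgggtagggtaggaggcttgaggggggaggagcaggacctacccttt
Klf4: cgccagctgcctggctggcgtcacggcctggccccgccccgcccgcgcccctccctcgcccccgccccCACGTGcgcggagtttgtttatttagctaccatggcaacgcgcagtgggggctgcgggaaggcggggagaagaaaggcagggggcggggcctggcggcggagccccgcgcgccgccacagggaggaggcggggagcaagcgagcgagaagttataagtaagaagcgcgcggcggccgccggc
Gadd45g: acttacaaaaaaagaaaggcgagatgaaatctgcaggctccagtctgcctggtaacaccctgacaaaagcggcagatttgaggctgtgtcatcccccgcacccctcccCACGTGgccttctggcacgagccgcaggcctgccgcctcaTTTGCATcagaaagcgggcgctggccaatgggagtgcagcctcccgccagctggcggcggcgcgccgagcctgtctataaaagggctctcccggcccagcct
Fgf5: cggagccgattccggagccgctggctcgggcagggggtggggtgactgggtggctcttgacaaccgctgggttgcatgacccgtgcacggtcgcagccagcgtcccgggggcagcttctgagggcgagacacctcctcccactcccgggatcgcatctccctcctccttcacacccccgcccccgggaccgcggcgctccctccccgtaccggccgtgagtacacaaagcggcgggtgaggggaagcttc
TTTGCAT begins at -151 in the Nanog window and at -102 in that of Gadd45g, while CACGTG begins at -182 in Klf4 and at -142 in Gadd45g. The Fgf5 window holds neither string. Over the windows of all genes, each counted singly, TTTGCAT occurred in 4.12% (1355 of 32851). The shares below are of genes with the string in any of their windows, so they are not in the same unit. Of the tested genes 3.88% held TTTGCAT (343 of 8840). It occurred in 4.62% of the genes that rose (9 of 195) and 4.42% of those that fell (14 of 317). CACGTG occurred in 6.02% of all windows, 10.2% of tested genes, 13.3% of rises (26 of 195) and 10.7% of falls (34 of 317). These are counts of strings and not of bound sites.

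The other rises on this rule, which took the 15 largest called changes each way whose hours did not overlap and with a mean of at least 5 FPKM at the higher hour, ran from 2.22 to 3.18 log2 units. Vrtn, a gene that affects vertebral number, went from 0.823 and 0.161 FPKM to 14.4 and 10.2. Plcg2, a phospholipase C that acts below receptor kinases, went from 0.990 and 1.79 to 15.6 and 20.4, and the zinc finger factor Wt1 from 0.363 and 0.129 to 6.14 and 7.19. All 3 were low in both 12 h libraries and several-fold higher in both 24 h libraries. Car4, a membrane-bound carbonic anhydrase, rose by 2.92 log2 units, the potassium channel gene Kcnk1 by 2.5, the tetraspan-type gene Tmem54 by 2.39, the matrix gene Cilp2 by 2.38, and Spata45 and the cyclin gene Ccno by 2.22 each. Slc16a3, the lactate exporter MCT4, had the widest spread of the group, with 11.2 and 5.39 FPKM at 12 h and 85.6 and 52.8 at 24 h. Its rise was 2.95 ± 0.51 log2 units (limma adjusted p = 0.022) and was called in 15 of 21 alternatives. Of the 15 calls, 14 remained when delta 12 h replicate 1 was left out, 11 when delta 12 h replicate 2 was, and 14 when either 24 h library was.

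**Figure D1:**
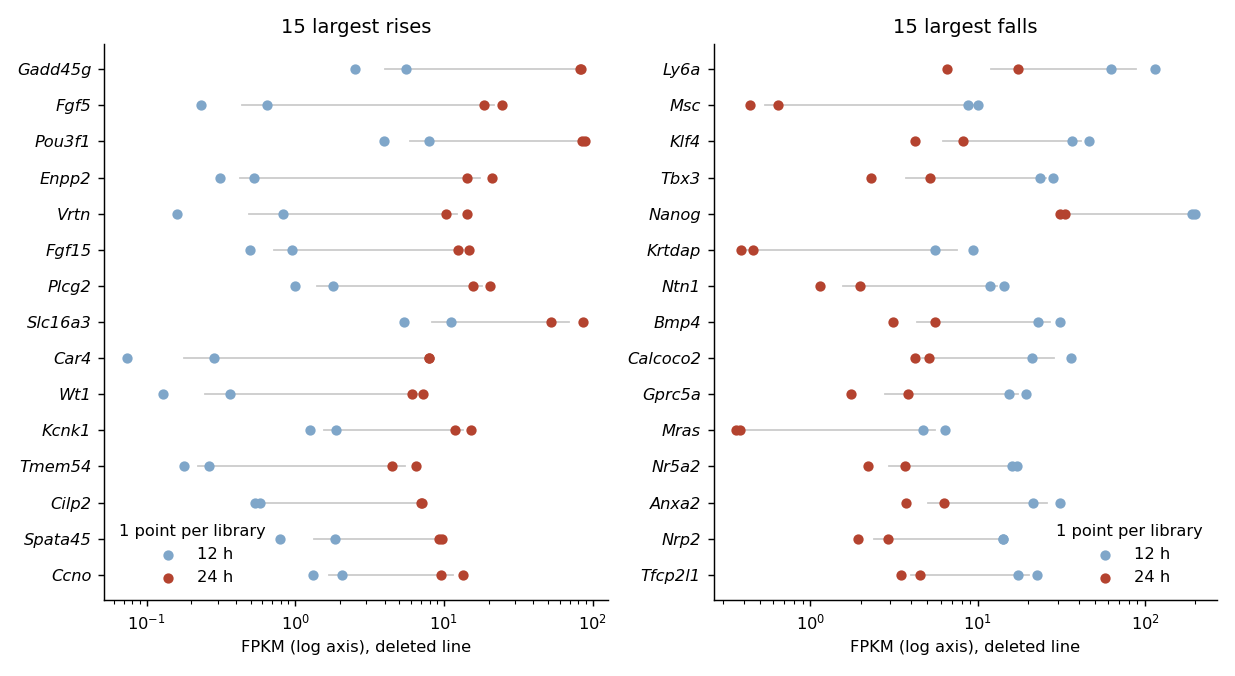
FPKM of the 15 largest rises (left) and 15 largest falls (right) in the deleted line on a log axis, with 1 point per library and a grey line between the means of 12 h (blue) and 24 h (red). The genes were picked so that the 2 red points of a row lie wholly to one side of the 2 blue points. Nanog, with 191 and 197 FPKM at 12 h and 31.1 and 33.4 at 24 h, shows closely spaced pairs.

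Of the 15 leading falls, 5 were naive factors: Klf4, Tbx3, Nanog, Nr5a2 and Tfcp2l1. Nanog (ENSMUSG00000012396, chromosome 6, 122707489 to 122714633), the homeodomain gene at the centre of the naive network, read 191 and 197 FPKM at 12 h and 31.1 and 33.4 at 24 h. It fell by 2.55 ± 0.09 log2 units (SE; limma adjusted p = 0.00015) and was called in all 21 alternatives. The libraries of each hour nearly coincided. Klf4 (ENSMUSG00000003032, chromosome 4, 55527143 to 55532466), the Krüppel-like factor downstream of LIF and STAT3, read 36.5 and 46.2, then 4.24 and 8.19. Its fall was -2.60 ± 0.31 log2 units (adjusted p = 0.0065, limma; called in 20 of 21 alternatives). The T-box gene Tbx3 went from 23.4 and 28.1 FPKM to 2.30 and 5.18, the nuclear receptor gene Nr5a2 from 17.1 and 16 to 2.21 and 3.66, and Tfcp2l1, another factor of the LIF response, from 17.5 and 22.7 to 3.50 and 4.53. In all 3 the hours were apart, as the rule that picked them required.

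The other 10 falls were of mixed function. Bmp4, a BMP ligand, read 22.9 and 31.1 FPKM at 12 h and 3.10 and 5.56 at 24 h, a fall of -2.42 ± 0.23 log2 units (limma adjusted p = 0.0038). Ntn1, the guidance ligand netrin 1, went from 11.8 and 14.3 to 1.14 and 1.98, and Nrp2, a receptor for semaphorins and VEGF, from 14.2 and 14.1 to 1.91 and 2.91. Each of these was lower at 24 h in both libraries, as the rule that picked them required. The Ras-family gene Mras fell by 2.25 log2 units, the orphan receptor gene Gprc5a by 2.33, the autophagy receptor gene Calcoco2 by 2.33 and the calcium-dependent membrane protein gene Anxa2 by 2.18. Some leading falls stood higher at 12 h than in naive culture: Krtdap read 0.164 and 1.01 FPKM at 0 h, 5.55 and 9.40 at 12 h and 0.383 and 0.456 at 24 h. The helix-loop-helix repressor gene Msc read 4.90 and 2.06 at 0 h, 8.79 and 10.1 at 12 h and 0.434 and 0.638 at 24 h. Ly6a, the surface antigen Sca-1, read 16.4 and 17, then 62.6 and 115, then 6.52 and 17.3. For these genes the 12 h libraries were the highest of the course. The Ly6a fall of -2.87 ± 0.62 log2 units was the largest of the 15 but only just passed (limma adjusted p = 0.045) and was called in 13 of 21 alternatives. Of the 15 falls, 10 remained called without delta 12 h replicate 1, 4 without delta 12 h replicate 2, 9 without delta 24 h replicate 1 and 10 without delta 24 h replicate 2.

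The naive list as a whole moved down. All 20 listed factors were tested, 14 fell and none rose (3.46% of all genes fell), and the median change was -1.48 log2 units beside -0.01 over all genes. Besides the 5 above, Tcl1, a co-activator of AKT kinase, went from 41.8 and 45.3 FPKM to 11.6 and 12.5. Esrrb, an orphan nuclear receptor gene of the 2i state, went from 72.9 and 83.8 to 23.0 and 28.8, and Zfp42 (Rex1), the classic reporter gene of naive cells, from 449 and 404 to 176 and 161. Zfp42 thus still read over 150 FPKM in both 24 h libraries, and Esrrb over 20. Jam2, an adhesion molecule gene, fell by 1.95 log2 units, Prdm14 by 1.84, Klf2 by 1.66, Klf5 by 1.40, Fbxo15 by 0.98 and Pecam1 by 0.52. The 6 listed factors that did not pass were Dppa3, Nr0b1, Mybl2, Stat3, Sox15 and Zscan10, with changes from -0.62 to 0.27. Zscan10, which was singled out after its values were seen, was the 1 member with a positive change, from 63.0 and 65.1 FPKM to 76.8 and 78.3. Of the 14 calls, 10 remained without delta 12 h replicate 1, 6 without delta 12 h replicate 2, 9 without delta 24 h replicate 1 and 11 without delta 24 h replicate 2, while the median stayed between -1.67 and -1.40 in every alternative.

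General pluripotency genes moved far less, with a median of -0.16. Of 15 tested, 2 fell and none rose (3.46% of all genes fell). Pou5f1 read 734 and 667 FPKM at 12 h and 681 and 575 at 24 h, with overlapping hours, and its change of -0.16 ± 0.12 log2 units did not pass (limma adjusted p = 0.52). Sox2, the partner of Pou5f1, read 336 and 335, then 213 and 225, a fall of -0.61 ± 0.09 (adjusted p = 0.015, limma). The other fall was Zfp57, a zinc finger gene that guards imprints, from 119 and 137 to 65.4 and 70.7. Neither call remained when any 1 of the 4 deleted-line libraries was left out.

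Formative genes rose. Of 22 tested members of the 23 listed, 10 rose (2.12% of all genes did), 1 fell, and the median was 1.06 log2 units. Dnmt3b, a de novo DNA methyltransferase gene, read 121 and 89.9 FPKM at 12 h and 277 and 283 at 24 h, a rise of 1.42 ± 0.18 (limma adjusted p = 0.0077). The HMG-box factor gene Sox3 went from 3.77 and 3.27 to 15 and 11.6, the kinase gene Pim2 from 27.0 and 21.0 to 82.1 and 86.9, and the zinc finger gene Sall2 from 6.32 and 4.39 to 24.1 and 24.4. These levels at least doubled in both libraries. Lef1, a nuclear effector of WNT, rose by 1.63, Sox4 by 1.09, the bHLH gene Hes6 by 1.08 and Grhl2, a factor of epithelial enhancers, by 1.04. The member that fell was Rbpj, the DNA-binding partner of Notch, from 33.6 and 29.0 FPKM to 20.9 and 19. Otx2, a leading regulator of this transition, read 38.2 and 23.7 at 12 h and 71.2 and 60.1 at 24 h. Its hours did not overlap, as in 54.4% of all genes, but its change of 1.09 ± 0.44 did not pass (limma adjusted p = 0.21). The 12 h libraries of Otx2 differed widely, and it was called in 2 of 21 alternatives. Dnmt3a, from 13.6 and 8.79 to 52.2 and 48.4, did not pass either (2.10 ± 0.55, adjusted p = 0.077, limma). It was called in 6 of 21 alternatives, with changes from 1.81 to 2.39. Of the 11 calls, 6 remained without delta 12 h replicate 1, 1 without delta 12 h replicate 2, 3 without delta 24 h replicate 1 and 5 without delta 24 h replicate 2; the list median stayed between 0.85 and 1.14.

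**Figure D2:**
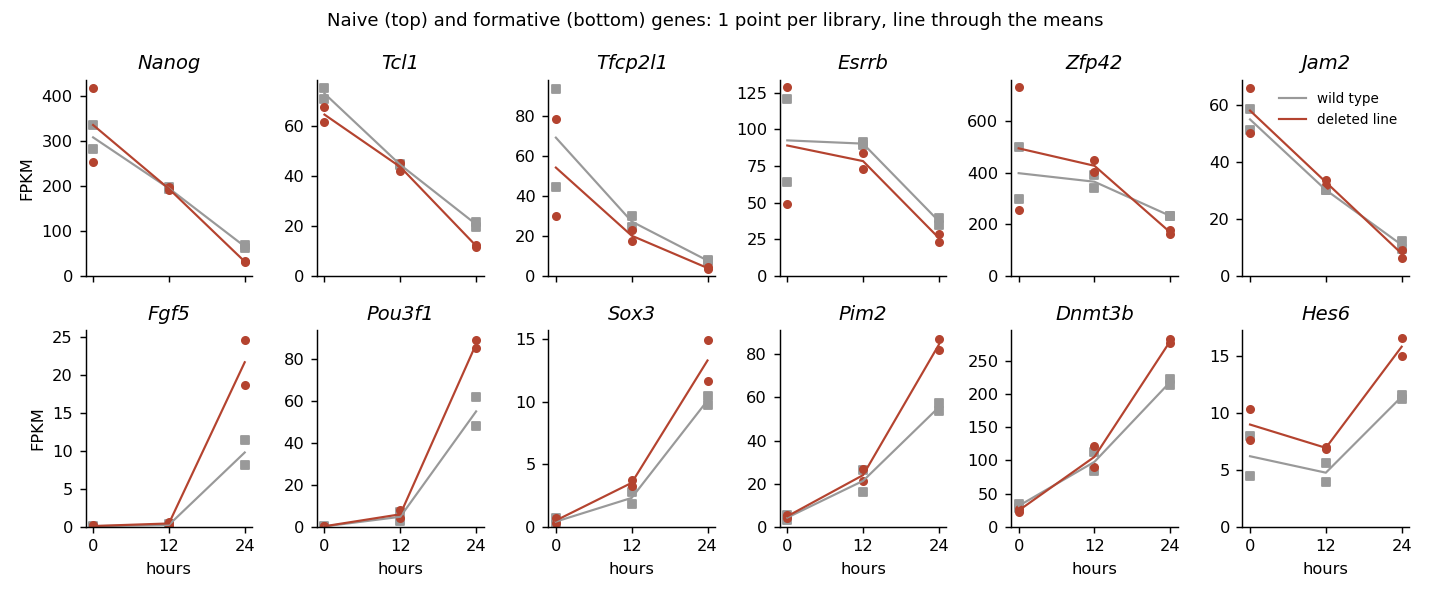
FPKM of 6 naive genes (top) and 6 formative genes (bottom) at 0, 12 and 24 h in the deleted line (red) and the wild type (grey), with 1 point per library and lines through the means. In the deleted line the naive genes fall from 12 h to 24 h and the formative genes rise, as in the Nanog panel from 191 and 197 to 31.1 and 33.4 and in the Fgf5 panel from 0.642 and 0.232 to 24.6 and 18.7.

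**Figure D3:**
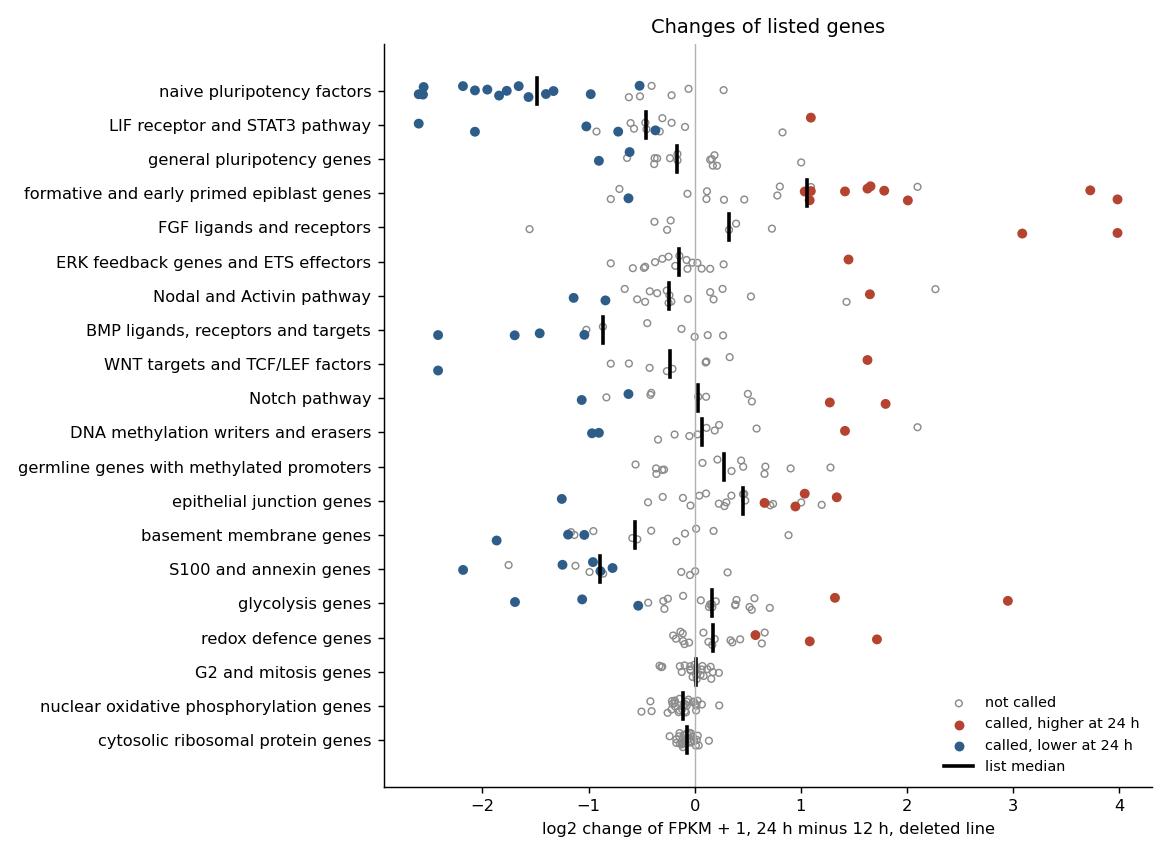
Changes of the tested members of 20 gene lists from 12 h to 24 h in the deleted line, in log2 units of FPKM + 1, with filled points for called genes (red higher, blue lower), open points for the others and a black bar at each list median. The naive list has the lowest median, at -1.48, and the formative list the highest, at 1.06, while the ribosomal protein list lies near 0.

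Calls in FGF signalling were the ligand genes Fgf5 and Fgf15 and the feedback gene Dusp4. Of 9 tested FGF ligand and receptor genes, 2 rose and none fell (2.12% of all genes rose). Fgf15, a ligand of the endocrine FGF branch, read 0.944 and 0.498 FPKM at 12 h and 14.7 and 12.3 at 24 h, a rise of 3.08 ± 0.24 (limma adjusted p = 0.0025). Both ligand calls, Fgf5 and Fgf15, remained without any 1 deleted-line library. Fgf4, the autocrine ligand of stem cells, read 119 and 111, then 143 and 144, and did not pass (0.32, adjusted p = 0.11, limma). Among 17 ERK feedback and ETS genes 1 rose (5.88%, beside 5.57% of all genes called), none fell and the median was -0.14. At an unadjusted p under 0.05 the test passed 6 of them, 5 lower, and voom weights called 4. The 1 rise was Dusp4, a phosphatase that inactivates ERK in the nucleus, from 13.3 and 11.7 FPKM to 39.7 and 31.9. The Sprouty gene Spry4 (19.4 and 19.8, then 11.1 and 14.7) and the ETS gene Etv4 (41.8 and 47.9, then 23.1 and 28.1) had lower values in both 24 h libraries without passing. Over all genes, 28.8% had both 24 h libraries below both 12 h libraries. Of 15 immediate early genes, Ier5 rose by 1.23 and the orphan receptor gene Nr4a1 fell by 0.89 log2 units. The calls of Dusp4, Ier5 and Nr4a1 were lost when any 1 deleted-line library was left out.

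The Nodal and Activin list held 19 tested genes, of which 1 rose and 2 fell (median -0.24), beside 2.12% and 3.46% of all genes. Skil (SnoN), a repressor of SMAD transcription that is itself a SMAD target, went from 9.96 and 6.97 FPKM to 30.9 and 26.0, a rise of 1.65 ± 0.33 (limma adjusted p = 0.036). The proprotein convertase gene Pcsk6, which matures Nodal-type ligands, went from 9.78 and 13.3 to 4.14 and 5.19, and the type I receptor gene Acvr1b from 12.2 and 13.7 to 5.64 and 8.12. Of the 3 calls, none remained without delta 12 h replicate 1, delta 12 h replicate 2 or delta 24 h replicate 1, and 1 remained without delta 24 h replicate 2.

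In the BMP pathway, 4 of 11 tested genes fell and none rose (3.46% of all genes fell), with a median of -0.86 log2 units. Beside the ligand Bmp4, the falls were the target genes Id2, Id4 and Smad6. Id2, an inhibitor of helix-loop-helix factors, read 9.98 and 11.1 FPKM at 12 h and 1.84 and 3.47 at 24 h (-1.70 ± 0.30, limma adjusted p = 0.025). Id4 read 4.11 and 5.33, then 1.02 and 1.12 (-1.46 ± 0.15, adjusted p = 0.0043, limma), and the inhibitory SMAD gene Smad6 read 2.98 and 3.33, then 0.932 and 1.11. In each of these genes the 2 hours did not overlap, as in every called gene of the comparison. Id3, from 40.4 and 39.2 to 26.4 and 17.3, did not pass (-0.86, limma adjusted p = 0.065). Among the 8 tested genes of Tcf15, its E-protein partners and the Id family, 2 fell (Id2 and Id4) and none rose. Of the 4 BMP calls, 2 remained without delta 12 h replicate 1, 1 without delta 12 h replicate 2, 2 without delta 24 h replicate 1 and 3 without delta 24 h replicate 2. With no filter on low values, which adds low genes to the list, its median was -0.07.

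In the LIF and STAT3 pathway 5 of 16 tested genes fell (3.46% of all genes fell), 1 rose and 10 did not pass, with a median of -0.46. The shared receptor subunit gene Il6st (gp130) went from 8.12 and 7.52 FPKM to 3.38 and 3.30 (-1.02 ± 0.12, limma adjusted p = 0.0053), and Lifr, its partner, from 10.3 and 12.5 to 6.11 and 6.89. Klf4 and Tfcp2l1, the STAT3 effectors, are given above, and the kinase gene Pim3 fell by 0.37. Sgk1, a kinase gene that responds to serum and glucocorticoid, went the other way, from 19 and 14.4 to 43.6 and 30.5. Of the 6 calls, 2, 1, 3 and 3 remained without delta 12 h replicate 1, delta 12 h replicate 2, delta 24 h replicate 1 and delta 24 h replicate 2. In the WNT list of 10 tested genes only Lef1 rose and only Bmp4 fell (median -0.24), beside 2.12% and 3.46% of all genes. The Lef1 call was lost without any 1 of these libraries and the Bmp4 call was kept.

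Notch ligands split. Of 11 tested genes, Dll1 (0.532 and 0.378 FPKM, then 3.12 and 5.19) and Dll3 (0.788 and 0.993, then 3.10 and 4.07) rose, while Jag1 (5.05 and 5.60, then 1.77 and 2.30) and Rbpj fell, and the median was 0.03. Over all genes 5.57% were called. Dll1 and Jag1 encode activating ligands and Dll3 a ligand that acts within the signalling cell. All 4 calls were lost without delta 12 h replicate 1, delta 12 h replicate 2 or delta 24 h replicate 2, and 2 remained without delta 24 h replicate 1.

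The list of DNA methylation writers and erasers, which also holds the imprint guard Zfp57, did not move as a group. Of 12 tested, Dnmt3b rose, Tet2 and Zfp57 fell, and the median was 0.07. Tet2, which oxidises methylcytosine, went from 3.73 and 5.37 FPKM to 1.75 and 1.87 (-0.97 ± 0.16, limma adjusted p = 0.019). Of 14 tested germline genes with methylated promoters none passed in limma and 4 had an unadjusted p under 0.05, while up to 5 were called in an alternative, with calls in 6 of 21. The nearest, Sycp3 of the meiotic chromosome axis, went from 8.57 and 10.1 to 22.9 and 25.2 (1.28 ± 0.34, limma adjusted p = 0.082, range over the alternatives 0.0042 to 0.41). Of the 3 methylation calls, 2 remained without delta 12 h replicate 1, none without delta 12 h replicate 2 or delta 24 h replicate 1, and 1 without delta 24 h replicate 2.

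Genes of epithelial junctions leaned upwards, with 4 rises and 1 fall among 23 tested and a median of 0.45. Of all genes 2.12% rose and 3.46% fell. Cldn7, a claudin gene, went from 0.988 and 1.08 FPKM to 4.03 and 4.25 (1.34 ± 0.22, limma adjusted p = 0.018) and Cldn6 from 19.6 and 20.9 to 35.0 and 45.6. The scaffold gene Tjp3 rose by 0.66 and Grhl2 by 1.04, whereas its family member Grhl3 fell, from 11.4 and 13.9 to 4.19 and 5.27. All 5 calls were lost when any 1 deleted-line library was left out. Basement membrane genes included 3 falls and no rise among 14 tested (median -0.56), beside falls in 3.46% of all genes. The nidogen gene Nid1 went from 29.9 and 35.1 FPKM to 7.39 and 9.01 (-1.87 ± 0.14, adjusted p = 0.0025, limma), Nid2 from 165 and 183 to 77.4 and 91.1, and the matrix-binding gene Sparc from 166 and 158 to 72.4 and 68.2. Each was close to or below 0.5 times its 12 h level, and 3 calls remained without any 1 library except delta 12 h replicate 2, where 2 did. Fn1, the fibronectin gene, read 69.4 and 88.0, then 36.6 and 47.9, and fell by 0.88 log2 units. It was the only call among 7 genes of epithelial-mesenchymal transition and among 10 integrins and fibronectin receptors, and it remained only without delta 24 h replicate 2.

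In the S100 and annexin families 5 of 13 tested genes fell and none rose (3.46% of all genes fell), with a median of -0.89. Anxa2 read 21.4 and 30.8 FPKM at 12 h and 3.72 and 6.32 at 24 h (-2.18 ± 0.38, limma adjusted p = 0.023). S100a10, its binding partner, went from 93.7 and 93.8 to 53.6 and 55.2, S100a11 from 58.2 and 65.7 to 32.2 and 30.6, and S100a6 from 30.4 and 39.3 to 12.1 and 16.2. The 2 hours did not overlap in any of these, nor in any other called gene of the comparison. Anxa3 fell by 0.89 log2 units; it and the actin-binding gene Cnn3 (-0.66) were the only calls among 21 SRF and YAP targets. Of the 5 family calls, 2 remained without delta 12 h replicate 1, 2 without delta 24 h replicate 2, and none without delta 12 h replicate 2 or delta 24 h replicate 1.

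Among 23 glycolysis genes 2 rose and 3 fell, beside 2.12% and 3.46% of all genes, and the median was 0.16. Apart from Slc16a3, the rise was the muscle enolase gene Eno3, from 3.55 and 2.88 FPKM to 9.75 and 9.25. The neuronal glucose transporter gene Slc2a3 went from 103 and 104 to 28 and 34.8 (-1.69 ± 0.14, limma adjusted p = 0.0026), the phosphofructokinase gene Pfkp from 37.9 and 39.0 to 17.2 and 18.7, and hexokinase Hk1 fell by 0.53. Of these 5 calls 2 remained without delta 12 h replicate 1, 1 without delta 12 h replicate 2 and 2 without either 24 h library. Redox defence genes included 3 rises and no fall among 20 tested (median 0.18), beside rises in 2.12% of all genes. Hmox1, haem oxygenase, went from 13.4 and 17.7 FPKM to 49.8 and 56.3 (1.72 ± 0.24, adjusted p = 0.011, limma), and the glutamate-cysteine ligase genes Gclm, from 16.8 and 16.5 to 36.6 and 36.2, and Gclc, from 22.5 and 24.8 to 35.4 and 35.7. No redox call remained without delta 12 h replicate 2, and 1 remained without each of the other deleted-line libraries in turn.

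The amino acid response showed no common direction. Asns, asparagine synthetase, read 163 and 175 FPKM at 12 h and 70.0 and 62.6 at 24 h (-1.34 ± 0.10, limma adjusted p = 0.0025) and was called in all 21 alternatives. The transporter subunit gene Slc3a2 rose slightly, from 54.7 and 53.4 to 72.2 and 71.2, and 16 further members of that list did not pass. None of 17 threonine, glycine and methionine genes passed in limma, and 3 had an unadjusted p under 0.05; up to 4 were called in an alternative, with calls in 3 of 21. Tdh, the threonine dehydrogenase on which naive mouse cells rely, read 256 and 240, then 113 and 107 (-1.17 ± 0.35, limma adjusted p = 0.11, range over the alternatives 0.0018 to 0.36). In the fatty acid list Acsl4 rose by 1.33, and in the cholesterol list of 23 none passed in limma (median 0.19), 5 had an unadjusted p under 0.05, and up to 5 were called in an alternative, with calls in 7 of 21. The Slc3a2 and Acsl4 calls were lost without any 1 deleted-line library.

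Myc-family and growth genes gave few calls. Mycn, the Myc gene of the epiblast and nervous system, read 35.4 and 26.2 FPKM at 12 h and 71.4 and 73.8 at 24 h (1.23 ± 0.18, limma adjusted p = 0.013), and Mxd4, a Max partner, rose from 0.832 and 0.795 to 2.26 and 2.59. They were 2 of 18 tested (5.57% of all genes were called). Gadd45b moved opposite to Gadd45g: it read 10.1 and 12.5, then 3.33 and 4.34 (-1.35 ± 0.18, adjusted p = 0.0094, limma). Gadd45a, from 31.6 and 25.7 to 52.2 and 45.3, did not pass (0.75, adjusted p = 0.14, limma). Of G1 regulators, cyclin E1 (Ccne1) went from 88.4 and 87.1 FPKM to 166 and 144 and Cdk6 from 4.09 and 4.71 to 1.72 and 1.77. The 2 G1 calls and the Mxd4 call were lost without any 1 deleted-line library, and the Mycn call remained without delta 12 h replicate 1 only. The Gadd45b call was lost without delta 12 h replicate 2 or delta 24 h replicate 1.

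No member passed in limma among 23 G2 and mitosis genes (median 0.01), 19 p53 targets (-0.21), 13 Bcl2-family genes (0.18), 29 nuclear respiratory chain genes (-0.11), 27 ribosomal protein genes (-0.07) or 7 tested of 13 listed mitochondrially encoded protein genes (-0.04). The counts at an unadjusted p under 0.05 were, in that order, 0, 2, 5, 3, 0 and 0, and with voom weights 1 Bcl2-family gene passed. The most members called in any of the 21 alternatives were, in the same order, 0, 1, 4, 2, 0 and 0. The mitochondrial list left out tRNA genes, and its untested members lay under the filter on low values. Of 16 tested mitochondrial tRNA genes outside it, 1 fell and none rose (3.46% of all genes fell). The mitochondrial median ran from -1.14 to 1.03 over the alternatives; the part of the read share given above, which differed between replicates 1 and 2, was not tested. Single calls came from Eed of the Polycomb complex (72.1 and 71.1 FPKM, then 47.8 and 45.8), the imprinted genes Snrpn (58.3 and 52.0, then 96.7 and 97.7) and Cd81 (88.7 and 87.1, then 50.9 and 54.1), the small heat shock gene Hspb1 (697 and 737, then 450 and 516) and Irf1, an interferon-response factor gene with a rise of 1.10 log2 units. The Eed and Cd81 calls were lost without any 1 deleted-line library and the Hspb1 call remained without delta 24 h replicate 2 only. Those of Snrpn and Irf1 were lost without delta 12 h replicate 2 or delta 24 h replicate 1. Mest, a paternally expressed gene, read 1.65 and 1.84 FPKM and then 2.5 and 2.47, where WT read 14.8 and 20.7 and then 34.7 and 39.1.

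Marker lists of other cell types differed in level and direction. Over the 17 primitive streak markers the summed level was 5.55 and 7.29 FPKM at 12 h and 3.65 and 4.24 at 24 h, and 14 of them stayed under 1 FPKM in all 4 libraries. The 9 paraxial mesoderm markers, the later site of Tcf15, summed to 0.810 and 0.463, then 0.397 and 0.598; all 9 were under 1 FPKM and Msgn1 was at 0. The 13 trophoblast markers summed to 21.0 and 24.9, then 16 and 14.5 (9 under 1 FPKM throughout, Prl3d1 and Tpbpa at 0), the 14 neural markers to 28.3 and 31.1, then 16.8 and 19.9 (12 under 1, Fabp7 and Olig2 at 0), and the 17 fibroblast markers to 16 and 20.8, then 13.3 and 16.4 (12 under 1, Lum and Postn at 0). The only call among the 8 fibroblast markers tested was Fbln1, which fell by 0.69 log2 units and was called in 14 of 21 alternatives. In WT the fibroblast sum differed between replicates 1 and 2, at 69.2 and 20.8 FPKM at 12 h and 55.4 and 14.9 at 24 h. The 17 primitive endoderm markers summed to 173 and 169, then 78.4 and 77.3, most of it Sparc, with 13 under 1 and Ttr at 0. Of the 8 germ cell markers Kit (3.75 and 4.76 FPKM, then 0.787 and 0.981) and Prdm14 fell, and both are also expressed in naive cells. The Kit call was lost without delta 12 h replicate 2 or delta 24 h replicate 1, and the Prdm14 call without any 1 deleted-line library. The 11 endothelial and blood markers summed to 3.61 and 3.82, then 4.61 and 5.97 (10 under 1, Hba-x and Hbb-bh1 at 0), and so were higher at 24 h at a low level. The 11 measured 2-cell-like markers summed to 92.2 and 81.6, then 91.6 and 86.2, with overlapping hours, most of it Eif1a (91.9 and 81.5, then 90.9 and 82.7), 10 of them under 1 and Tcstv1 at 0. In bulk libraries fewer cells of a type and less RNA per cell cannot be told apart, and the part of such cells in the changes above was not tested.

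Over the same interval most of the deleted line's called genes had the same sign of change in the wild type. In WT libraries limma called 367 genes (2.76%), 153 higher (1.15%) and 214 lower (1.61%). Without mitochondrial, ribosomal protein and rRNA-like genes, and with FPKM rescaled to the remainder, the split was 153 higher and 117 lower. The genotypes shared 135 rises (48.0% of those of the deleted line and 88.2% of those of WT) and 200 falls (43.6% and 93.5%), and no gene was called in opposite directions. Of the deleted line's calls, 277 of 281 rises and 456 of 459 falls had the same sign in WT. Their median change was 1.04 in the deleted line and 0.85 in WT for rises, and -0.92 and -0.70 for falls. Those genes were picked by the deleted line's change, which tilts this comparison. Among the genes called in WT, a choice that tilts it the other way, the change was larger in the deleted line for 89 of 153 rises (58.2%) and 166 of 214 falls (77.6%). Over all genes tested, the size of the change was larger in the deleted line for 7426 of 13284. Across all 13284 genes the changes of both genotypes, from separate libraries, correlated with Pearson's r = 0.82 and Spearman's rho = 0.78, a description since genes are not independent replicates. The WT count rested on WT 24 h replicate 1, without which it was 0 (1697 at an unadjusted p under 0.05), and was 39 without WT 12 h replicate 2, 85 without WT 24 h replicate 2 and 169 without WT 12 h replicate 1; without 1 deleted-line library in turn it was 174 to 206.

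**Figure D4:**
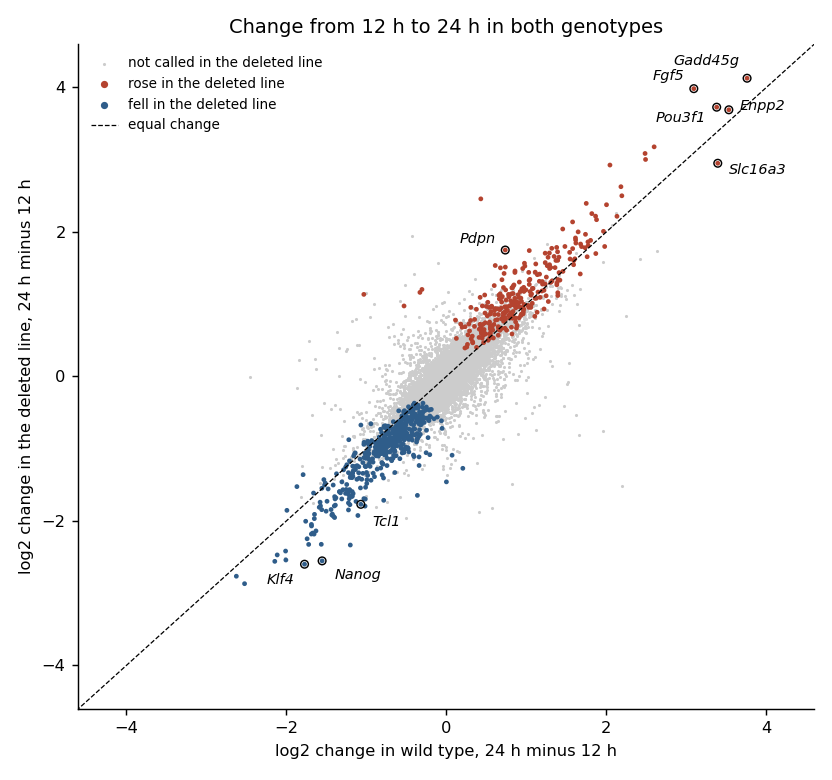
Change from 12 h to 24 h of each tested gene in the wild type (horizontal) and the deleted line (vertical), in log2 units of FPKM + 1, with genes called in the deleted line in red (rose) and blue (fell) and a dashed line of equal change. Nanog, at -1.55 in WT and -2.55 in the deleted line, lies below the line, and Fgf5, at 3.09 and 3.98, above it.

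No gene passed the test of a difference between the genotypes' changes after adjustment. The test of the difference passed 0 genes in limma and 0 with voom weights, and at an unadjusted p under 0.05 it passed 169 (1.27%) and 101. Among the genes that met the rule given in the next paragraph, the smallest p belonged to Nanog. Its 12 h levels were alike (191 and 197 FPKM in the deleted line, 198 and 193 in WT), and its 24 h levels were 31.1 and 33.4 against 63.3 and 68.5. The difference was -1.0 ± 0.12 log2 units (limma adjusted p = 1.00). Both deleted-line libraries at 24 h lay below both WT libraries. Next among the naive genes, Tcl1 read 11.6 and 12.5 against 19.6 and 21.7 FPKM at 24 h (difference -0.70 ± 0.14, limma adjusted p = 1.00) and Zfp42 176 and 161 against 232 and 233 (-0.69 ± 0.15). The naive list had a median of -1.48 in the deleted line and -1.12 in WT, with the change more negative in the deleted line for 16 of 20 members, beside 6937 of 13284 over all genes tested. The formative list had medians of 1.06 and 1.14. Gene by gene its median difference was 0.02, and the change was more positive in the deleted line for 12 of 22 tested members. Over all genes tested that held for 6347 of 13284.

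The pick for the difference took genes without a predicted symbol whose highest group mean at 12 h or 24 h was at least 5 FPKM. Of the 10 such genes with the smallest p, 5 each way, none was called. Those with a more positive change in the deleted line were Pdpn, the mucin-like glycoprotein podoplanin (1.19 and 0.679 FPKM, then 5.90 and 5.02, against 1.52 and 1.82, then 3.74 and 3.2 in WT), Rab11fip4, Tada2a, Cnksr3 and the snoRNA gene Snora31. Pdpn differed by 1.01 ± 0.25 log2 units (limma adjusted p = 1.00), and the other 4 by 0.36 to 0.82. Beside the 3 naive genes, those with a more negative change were the snoRNA gene Snord73a (-3.71) and the mitochondrial tRNA gene mt-Tn (-1.48). Snord73a was at 0 in 1 of the 2 libraries of delta 24 h and of WT 12 h. Fgf5 differed by 0.89 ± 0.32 and Mest by -0.68 ± 0.23, again without passing (limma adjusted p = 1.00 for each). With 2 libraries per group, the interval of most of these differences is wide, and a p that missed does not show that the genotypes changed alike.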

How the data were processed

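Messenger RNA libraries were made, per the labels' protocols, with oligo-dT selection from 1 µg of RNA and the NEBNext Ultra II kit. The deposited values were FPKM per gene for 47729 genes. The submitters' processing notes list cutadapt, STAR 2.5.2b, featureCounts 1.5.1, edgeR 3.16.5 and mm10, with no role or order. Whether counting used strand is not stated there, so antisense pairs may hold each other's reads. FPKM steps gave whole reads, within 0.01 read, for 100% of the 28657 genes above 0 (80.1% with the GENCODE M21 length, the others with a length found from the steps). Recovered reads served for depth, read shares and an alternative with voom weights.

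Genes with FPKM of at least 1 in at least 2 of the 8 libraries of 12 h and 24 h were kept, and log2(FPKM + 1) entered 1 limma 3.58.1 model (R 4.3.3) with a mean per group, a mean-variance trend, no replicate block, with 4 residual degrees of freedom (3.1 prior). Adding 1 makes the changes of low genes look smaller, and fold ratios are of mean FPKM. The 0 h libraries were left out because their replicates differed more: the SD of the log2 difference was 0.834 in delta and 0.656 in WT at 0 h. P-values were 2-sided, adjusted by Benjamini-Hochberg over all genes tested, and called at 0.05. Leaving out a library leaves 1 in its arm, which is then assumed to vary like the others. The method was tested on simulated reads, drawn independently for each library with the same dispersion for every gene. In the data, deviations of same-numbered libraries correlated at 0.182 to 0.477 between groups. The simulation therefore does not show how the method performs on these libraries. Python 3.11.15 with pandas 2.3.3 and matplotlib 3.10.9 made summaries and figures.

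Named genes were the 15 largest called rises and falls whose hours did not overlap, with a mean of at least 5 FPKM and no predicted symbol, the 5 smallest p each way for the genotype difference, called members and up to 4 members of smallest p per list, and Tcf15, Mest, Pou5f1, Sox2, Nanog, Klf4, Pou3f1, Otx2 and Fgf5. The FPKM and symbol rules held for the genotype difference too, on the highest mean of the 12 h and 24 h groups. The 49 lists (800 symbols, 624 tested), the members and the rules were chosen with earlier results of these data known. Promoter sequences are RefSeq's; 20 of the 30 leading genes had one.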

Additional observations from a re-analysis of the deposited data

How the results depend on the processing

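In the deleted line the count of called genes, 740, was 448 with no filter on low values, 190 with all 12 libraries in the fit, 1494 with a replicate block over the 8 libraries and 2198 with a replicate block within each genotype, and it ran from 51 to 752 when 1 library was left out. Under the other 9 alternatives it was 625 to 1023. All 740 calls were kept under both blocks. In WT the count of 367 became 106 with no filter, 57 with all 12 libraries, 1 with the 4 WT libraries alone, 993 with the replicate block and 1573 with the block within each genotype, and ran from 0 to 206 over the libraries left out. Same-numbered deviations correlated at 0.397 between the deleted line's hours and at 0.182 to 0.477 between all pairs of groups, and the mitochondrial read share followed the number, a hint from the data that they pair; the labels tie the numbers to no batch or day, so the fit without the block is the one reported. The difference between genotypes passed 0 genes in every alternative that gave one; it could not be fitted in 1 genotype alone. No named gene reversed its direction as a call. With 2 libraries per group and 4 residual degrees of freedom, the number of libraries limits the precision. The cause of these shifts was not tested, except that the leave-one-out fits hold fewer samples and the unfiltered fit more genes.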
